A study of Mus musculus with 6 samples.

Results

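The genes described here are 10 immediate early genes, chosen by name as the lines of the deposited table with the symbols Fos, Fosl1, Fosl2, Jun, Junb, Jund, Egr1, Ier2, Dusp1 and Myc. All 10 were found among the 16472 genes of the table, and all 10 had an adjusted p. The table compares HT22 cells, an immortalised mouse hippocampal line used as a model of neurons, after 16 h with AA147 or with its vehicle, DMSO. The AA147 group had 3 libraries, from cells given 10 mM of the compound as the labels write the dose, a unit that may be a slip and could not be checked here, and the vehicle group had 3 libraries. AA147 is a synthetic compound described as switching on ATF6, a sensor of misfolded proteins in the endoplasmic reticulum, and NRF2, a factor that induces antioxidant genes. Both groups were grown with serum, and all libraries came from this 1 line.

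Immediate early genes are transcribed within minutes of a stimulus from factors that are already in the cell, and many of their transcripts and proteins are short lived. FOS and JUN proteins pair through leucine zippers to form AP-1, in which FOS proteins need a JUN partner to bind DNA. EGR1 is a zinc finger factor, MYC is a helix-loop-helix factor that pairs with MAX, and DUSP1 is a phosphatase that switches off MAP kinases. A sample taken after 16 h shows a late level of these genes and not the first wave of their induction.

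Per the file headers, each gene had a mean normalized count over the libraries, a log2 fold change with its standard error (SE) and an adjusted p over all genes. A gene is called here when the adjusted p in the authors' deposited table was under 0.05. No value per library was analysed here, so the spread between replicates enters only through the SE. The table does not name the numerator of the fold change. A positive value is read as higher with AA147, since the NRF2 targets Nqo1 and Gsta4 stood at 0.93 and 1.84 in the authors' deposited table, and every direction below is conditional on that reading. By the same reading Hspa5, the chaperone BiP and a target of ATF6, was lower with AA147, at -0.80 in the authors' deposited table. Switching on ATF6 would raise Hspa5, so this gene points to the opposite reading and the direction is not settled.

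The 5 called genes did not share a direction. Fosl1, Junb and Myc rose with AA147, and Egr1 and Ier2 fell, while Fos, Fosl2, Jun, Jund and Dusp1 were not called. In the authors' deposited table this was 5 of 10 genes called, beside 20.2% of the 13597 genes with an adjusted p. The 3 positive calls stand beside 9.05% of all tested genes called positive, and the 2 negative calls beside 11.1% called negative. Calls depended on abundance, so the share is also given among genes whose mean lay within a factor of 1.5 of each member. That share ran from 18.1% around Egr1 to 27.9% around Myc, and was 5.11% around Fos, the least abundant member. Over the 10 genes the log2 fold changes had a median of 0.16, against 0.01 for all tested genes. Their median absolute log2 fold change was 0.30, against 0.16 for all tested genes.

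**Figure D1:**
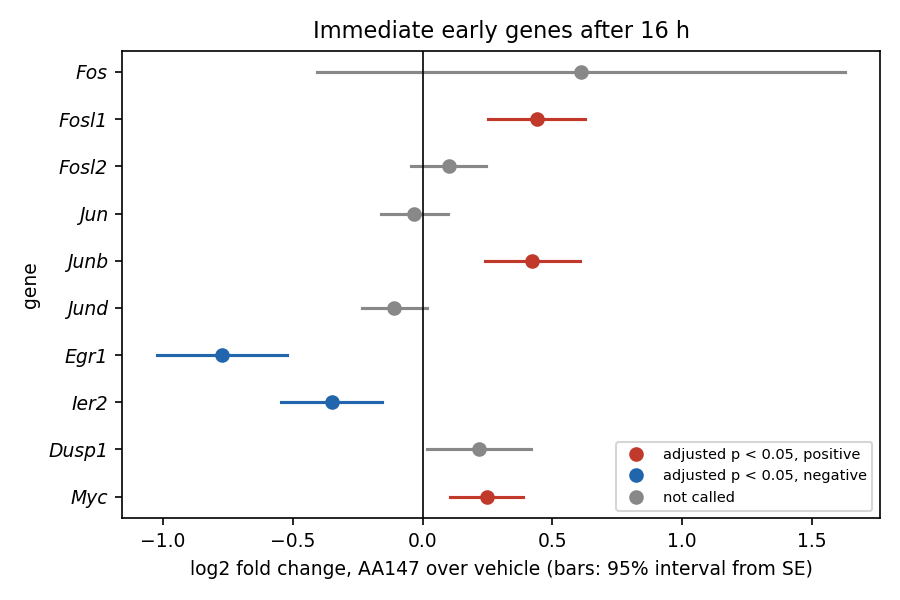
Log2 fold change of each gene (x axis, AA147 over vehicle) with the 95% interval computed from the SE in the authors' deposited table; red and blue mark called genes and grey the genes not called. Egr1 lies farthest from 0 among the called genes at -0.77, and the interval of Fos is the widest, from -0.41 to 1.63.

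Sequences are shown for the FOS and JUN genes that stand for a called and a not called member, and for Dusp1, because immediate early promoters are known for short sites bound by AP-1, CREB and SRF factors. RefSeq promoters on GRCm38.p6 matched 6 of the 10 symbols (Fos, Fosl2, Jun, Junb, Jund and Dusp1). The lines below give, 5′ to 3′ on the gene's strand, the 250 bases before the RefSeq start of 4 of them, with motif matches in capitals.
Junb, chr8:84978749-84978998, minus strand: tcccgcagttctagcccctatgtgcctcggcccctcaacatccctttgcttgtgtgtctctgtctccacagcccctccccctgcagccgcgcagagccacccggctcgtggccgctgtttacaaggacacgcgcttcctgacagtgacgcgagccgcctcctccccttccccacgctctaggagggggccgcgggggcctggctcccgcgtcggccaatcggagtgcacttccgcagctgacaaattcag
Jun, chr4:95052223-95052472, minus strand: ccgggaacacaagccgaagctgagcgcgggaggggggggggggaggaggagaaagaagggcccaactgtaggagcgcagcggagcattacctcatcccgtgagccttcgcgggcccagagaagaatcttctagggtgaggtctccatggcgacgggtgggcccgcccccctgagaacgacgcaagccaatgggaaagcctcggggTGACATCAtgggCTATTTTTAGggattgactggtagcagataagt
Fos, chr12:85473640-85473889, plus strand: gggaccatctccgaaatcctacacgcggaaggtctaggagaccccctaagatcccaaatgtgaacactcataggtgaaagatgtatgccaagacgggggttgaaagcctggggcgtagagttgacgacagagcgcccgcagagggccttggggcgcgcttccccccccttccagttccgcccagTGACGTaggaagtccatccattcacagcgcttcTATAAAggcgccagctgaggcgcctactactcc
Dusp1, chr17:26508473-26508722, minus strand: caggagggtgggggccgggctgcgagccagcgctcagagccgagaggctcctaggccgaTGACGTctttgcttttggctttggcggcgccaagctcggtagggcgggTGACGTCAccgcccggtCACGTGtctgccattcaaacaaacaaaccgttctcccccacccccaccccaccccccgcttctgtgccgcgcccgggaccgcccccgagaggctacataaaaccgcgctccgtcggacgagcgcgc

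The motifs were searched on both strands: the AP-1 site TGANTCA, its variant TGACATCA known from Jun, the cyclic AMP response element TGACGTCA and its core TGACGT, the EGR site GCGNGGGCG, the E-box CACGTG, the TATA box TATAAA, and the CArG box of SRF and the MEF2 site by name. The core is contained in the full cyclic AMP element. Jun held the variant TGACATCA from base 45 to 38 before the start, which 2.93% of 32851 promoter windows of the same length held, and a MEF2 match from base 33 to 24, held by 2.92%. Fos held the core TGACGT from base 66 to 61, held by 6.47% of windows, and TATAAA from base 33 to 28, held by 12.4%. Dusp1 held the full element TGACGTCA from base 143 to 136, held by 1.55% of windows, a separate core from base 191 to 186, and an E-box from base 126 to 121, held by 6.02%. In the window of Junb none of these letters was found, and Junb was the only called member with a matched promoter. Fosl2, not printed, held an EGR site from base 79 to 71, held by 4.70% of windows, and Jund held none of the motifs. No window of the 6 held TGANTCA or a CArG box, which 6.75% and 1.47% of windows held. Sites farther than 250 bases before the start were not searched, so a gene may hold these sites outside the window. These matches describe letters in the windows.

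Among the FOS genes, Fosl1, which encodes FRA-1, was the called member. Its mean of 1139 normalized counts and its fold change imply 967 in the vehicle group and 1312 in the AA147 group. These implied group means take the fold change in the authors' deposited table at face value with equal group sizes. The log2 fold change of Fosl1 was 0.44 (SE 0.095, adjusted p 6.83e-05) per the authors' deposited table, which is 1.36-fold with a 95% interval from 1.19 to 1.54. Among the 2612 genes of similar mean, 94.3% had a smaller absolute fold change than Fosl1.

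Fosl2, which encodes FRA-2, had a mean of 1709 and implied group means of 1649 with vehicle and 1769 with AA147. Its log2 fold change was 0.10 (SE 0.074, adjusted p 0.382) per the authors' deposited table, with a 95% interval from -0.04 to 0.25. The intervals of Fosl1 and Fosl2 did not overlap, but the difference between the genes was not tested. Fos, the founding member of AP-1, had a mean of only 18.9 normalized counts. Its implied group means were 14.9 with vehicle and 22.8 with AA147, and its log2 fold change in the authors' deposited table was 0.61 (SE 0.52, adjusted p 0.465). The 95% interval of Fos ran from 0.755-fold to 3.10-fold, which holds both no change and the 1.36-fold of Fosl1. Fosb, a further FOS gene outside the 10, was similarly scarce with a mean of 59.3 and a log2 fold change of 0.71 (SE 0.29, adjusted p 0.0676) per the authors' deposited table.

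Among the JUN genes, Junb was the called member. JUNB is known as a weaker activator than JUN that can restrain it in AP-1. The mean of Junb was 766 normalized counts, with implied group means of 654 with vehicle and 877 with AA147. In the authors' deposited table its log2 fold change was 0.42 (SE 0.094, adjusted p 0.000102), which is 1.34-fold with a 95% interval from 1.18 to 1.52.

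Jun itself was close to 0. Its mean was 2494, with implied group means of 2521 with vehicle and 2467 with AA147, and its log2 fold change was -0.03 (SE 0.065, adjusted p 0.807) per the authors' deposited table. The 95% interval of Jun, from 0.896-fold to 1.07-fold, did not reach the estimate of Junb. Jund, known as the JUN gene with steady expression in resting cells, had implied group means of 4286 with vehicle and 3975 with AA147. Its log2 fold change was -0.11 (SE 0.064, adjusted p 0.244) per the authors' deposited table, with a 95% interval from 0.850-fold to 1.01-fold. The interval of Junb overlapped neither that of Jun nor that of Jund, and these differences were not tested.

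Egr1 had the largest absolute fold change of the called members. Its mean was 379 normalized counts, with implied group means of 479 with vehicle and 280 with AA147. The log2 fold change of Egr1 was -0.77 (SE 0.13, adjusted p 5.72e-08) per the authors' deposited table, which is 0.585-fold with a 95% interval from 0.492 to 0.697. Of the 1823 genes of similar mean, 97.7% had a smaller absolute fold change. The related Egr2 and Egr3 had means of 15.7 and 50.2 and were not called in the authors' deposited table, at -0.60 (SE 0.53) and -0.22 (SE 0.32). NAB1 and NAB2 are corepressors that bind EGR proteins, and Nab2 is a known target of EGR1. In the authors' deposited table Nab2 fell, with a log2 fold change of -0.65 (SE 0.081, adjusted p 9.16e-14), while Nab1 was at -0.10 (SE 0.095, adjusted p 0.537).

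Ier2, a nuclear protein gene of the same early class, fell less. Its implied group means were 677 with vehicle and 531 with AA147, around a mean of 604. The log2 fold change of Ier2 was -0.35 (SE 0.099, adjusted p 0.00385) per the authors' deposited table, which is 0.785-fold with a 95% interval from 0.686 to 0.898.

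Dusp1 had implied group means of 596 with vehicle and 693 with AA147. Its log2 fold change was 0.22 (SE 0.10) in the authors' deposited table, where the unadjusted p was 0.0326 and the adjusted p 0.120. The 95% interval of Dusp1, from 1.01-fold to 1.34-fold, lay just above no change before adjustment for the number of genes.

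Myc had a mean of 4494 normalized counts. Its implied group means were 4109 with vehicle and 4879 with AA147. The log2 fold change of Myc was 0.25 (SE 0.072, adjusted p 0.00484) per the authors' deposited table, which is 1.19-fold with a 95% interval from 1.08 to 1.31. This was the smallest change among the called members, and 83.8% of the 1589 genes of similar mean had a smaller absolute fold change.

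Levels were compared between genes only per 1000 bases (kb) of the canonical transcript in GENCODE M39. On this scale Jund stood highest with a mean of 2478 normalized counts per kb, followed by Myc at 1892, Jun at 782, Fosl1 at 611, Junb at 423, Ier2 at 396, Dusp1 at 324, Fosl2 at 245, Egr1 at 84.4 and Fos at 8.94. Of the summed level per kb of Fos, Fosl1 and Fosl2, with Fosb left out, Fos made up 0.927% with vehicle and 1.12% with AA147. Fosl1 made up 68.1% of that sum with vehicle and 72.7% with AA147. Jund made up 69.1% of the summed level per kb of the JUN genes with vehicle and 65.5% with AA147, and Junb 9.71% and 13.3%. The order of some neighbours differed between the groups. Ier2 stood above Junb with vehicle, at 444 against 362 per kb, and below it with AA147, at 348 against 485 per kb. If the table were vehicle over AA147, the groups would exchange places in each of these shares and levels. The levels of Junb, Ier2 and Dusp1 are close enough that their order also depends on the transcript lengths used. The place of Fosl1 above Fosl2 rests on lengths of 1864 and 6975 bases, since their means were 1139 and 1709 normalized counts. Likewise, Jund stands above Myc through lengths of 1667 and 2375 bases, with means of 4131 and 4494. The family shares depend on these lengths as well. These sums and shares carry no error, since the table gives none for them.

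**Figure D2:**
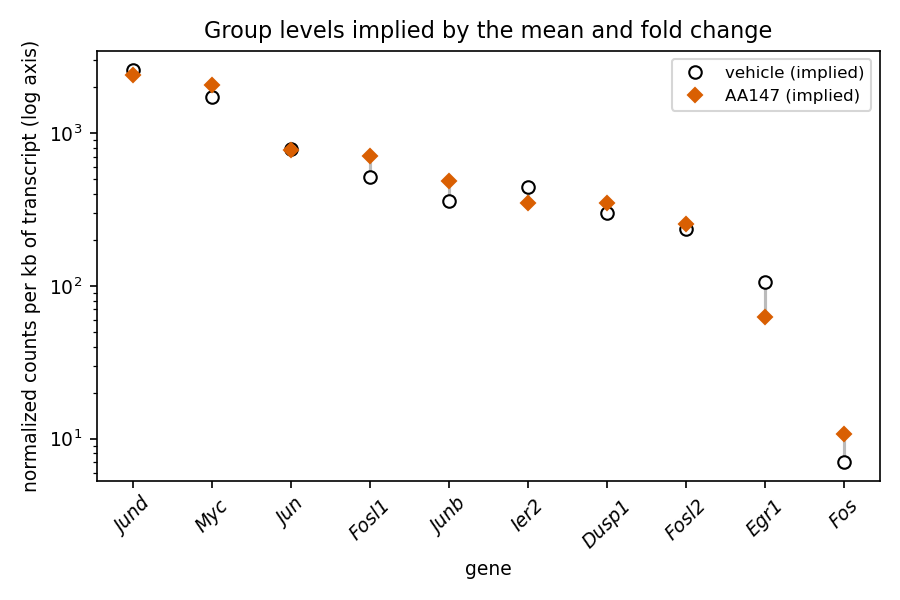
Implied level of each gene (y axis, normalized counts per kb of transcript, log axis) with vehicle (open circles) and AA147 (diamonds), ordered by mean level per kb; error bars are not drawn because the table gives no error per group. The genes span from Jund at 2478 to Fos at 8.94, and the open circle lies visibly above the diamond for Egr1 and Ier2.

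The SEs of the members lay near those of genes of similar mean. In the authors' deposited table they were 0.884 to 1.07 times the median SE of such genes, with Jun lowest and Fosl1 highest. DESeq2 draws the spread of each gene toward a trend with the mean, so this closeness is partly set by the method. The SE that counting alone would give was computed from the implied group means. It was 0.018 for Myc and 0.28 for Fos. What remained corresponds to the spread between libraries fitted by DESeq2, as a coefficient of variation. This fitted spread was 5.16% for Jun to 9.51% for Egr1 in the 9 members with a mean above 100, and 37.3% for Fos. It is not a spread observed between libraries. The calculation is also an approximation, as it takes all libraries at equal depth.

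**Figure D3:**
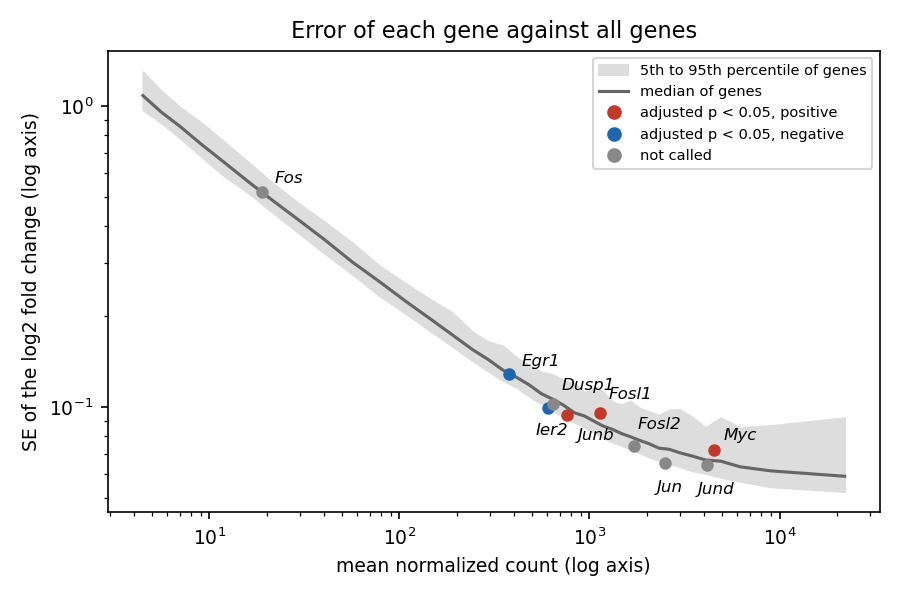
SE of the log2 fold change (y axis, log axis) against mean normalized count (x axis, log axis) for the 10 genes, over the median (line) and the 5th to 95th percentile (band) of all genes in classes of mean. All 10 points lie near the line, and Fos has the largest SE at 0.52.

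The libraries were not stranded, so reads from genes that overlap on opposite strands cannot be told apart, and how the authors assigned such reads is not given in the sources used here. In GENCODE M39, 7 of the 10 genes share exon bases with a gene on the other strand. The overlap was longest for Fosl1, where the exons of all its transcripts share 1163 bases with those of Ccdc85b. That number equals 62.4% of the length of the canonical Fosl1 transcript, but the bases need not all lie in that transcript. Ccdc85b had a mean of 1695 and a log2 fold change of 0.07 (SE 0.087, adjusted p 0.644) per the authors' deposited table. Prdx2 shares 173 bases with Junb and fell in the authors' deposited table, at -0.17 (SE 0.055, adjusted p 0.0133), while Junb rose. Junos shares 528 bases with Jun and had a log2 fold change of -0.21 (SE 0.10, adjusted p 0.146) per the authors' deposited table. The levels, fold changes and family shares of Fosl1, Jun and Junb are uncertain to that extent. Jund shares 877 bases with the unnamed gene Gm11175, which was not analysed here. Egr1, Ier2 and Fos had no such overlap.

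Genes around the 10 were taken from 8 lists. The AP-1 partners are other leucine zipper factors that pair with FOS or JUN proteins or share their sites. Of the 16 tested, 3 fell and 0 rose in the authors' deposited table, a DESeq2 result in which 2 positive and 4 negative genes had an unadjusted p under 0.05. The 3 were Jdp2, a repressor that pairs with JUN, at -0.54 (SE 0.086), Atf5 at -0.52 (SE 0.073) and Atf4, the main factor of the integrated stress response, at -0.51 (SE 0.061). The called share of this list, 18.8%, was near the 20.2% of all tested genes, of which 9.05% were called positive and 11.1% negative. The list median was 0.04. Atf3, Batf, Batf2, Batf3, Maf and Nrl were not analysed here.

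Among 34 tested genes of the list of other immediate early genes, 6 rose and 7 fell in the authors' deposited table, and the median was -0.02. The called share of this list was 38.2%, beside 20.2% of all tested genes, of which 9.05% were called positive and 11.1% negative. The largest positive calls in the authors' deposited table were Ier3 at 0.64 (SE 0.096), Cyr61, a secreted matrix protein, at 0.58 (SE 0.094) and Klf2 at 0.57 (SE 0.14). The largest negative calls were Ier5l at -0.64 (SE 0.088), the helix-loop-helix inhibitor Id1 at -0.41 (SE 0.086) and the kinase Plk3 at -0.34 (SE 0.086) in the authors' deposited table.

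The phosphatases related to Dusp1 were split as well. Of 11 tested MAP kinase phosphatases, 2 rose and 2 fell in the authors' deposited table. The called share of these phosphatases was 36.4%, beside 20.2% of all tested genes. Dusp4 stood at 0.67 (SE 0.14) and Dusp10, which acts mainly on JNK and p38, at 0.45 (SE 0.11), while Dusp6, which acts on ERK, stood at -0.57 (SE 0.10) and Dusp14 at -0.37 (SE 0.086) in the authors' deposited table. As with the 10 members, no single direction held for these phosphatases. Of 28 tested transcripts of kinases and promoter factors upstream, 4 fell and 0 rose in the authors' deposited table by DESeq2, with 1 positive and 5 negative at an unadjusted p under 0.05. The called share of this list was 14.3%, beside 20.2% of all tested genes, of which 9.05% were called positive. After subtracting the trend with transcript length, GC content and mean, the list had 3 negative calls and 1 positive call. The 3 largest calls in the authors' deposited table were the kinases Mapk14 (p38 alpha) at -0.26 (SE 0.087) and Mapk7 (ERK5) at -0.24 (SE 0.079), and the SRF partner Elk3 at -0.23 (SE 0.063). Transcript levels say nothing of the activity of these kinases.

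In the MYC network 4 of 16 tested genes rose and 1 fell in the authors' deposited table, and the median was 0.16. The called share of this network was 31.25%, beside 20.2% of all tested genes. The kinase Pim1 at 0.73 (SE 0.17), Aurka at 0.33 (SE 0.069) and Zbtb17, which encodes the MYC partner MIZ1, at 0.30 (SE 0.081) led the positive calls in the authors' deposited table. Mxd4, an antagonist that competes with MYC for MAX, fell with a log2 fold change of -0.32 (SE 0.088), and Max was at 0.09 (SE 0.096, adjusted p 0.598) per the authors' deposited table. The known MYC targets include many genes of ribosome assembly and metabolism. Of 30 tested, 0 rose and 7 fell in the authors' deposited table by DESeq2, where 2 positive and 10 negative genes had an unadjusted p under 0.05, and the median was -0.06. The called share of this list, 23.3%, was near the 20.2% of all tested genes, and 1 positive call appeared with the adjustment over genes with a mean of at least 100 and after subtracting the trend with transcript length, GC content and mean. The lowest in the authors' deposited table were Ldha, lactate dehydrogenase A, at -0.40 (SE 0.058), and the serine hydroxymethyltransferases Shmt2 at -0.38 (SE 0.063) and Shmt1 at -0.36 (SE 0.084).

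Known AP-1 targets had the widest spread of the lists. Of 24 tested, 6 rose and 6 fell in the authors' deposited table, and the median was 0.03. Ptgs2, cyclooxygenase 2, was highest at 1.31 (SE 0.095), and Hmga1, an architectural chromatin protein, was also called positive at 0.34 (SE 0.11) in the authors' deposited table. Plau, the protease urokinase, was lowest at -1.46 (SE 0.14), with Spp1, osteopontin, at -1.35 (SE 0.061) and Fgf7 at -0.83 (SE 0.097) in the authors' deposited table. The called shares of these lists, from 14.3% for the upstream kinases to 50% for the AP-1 targets, stand beside 20.2% of all tested genes.

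**Figure D4:**
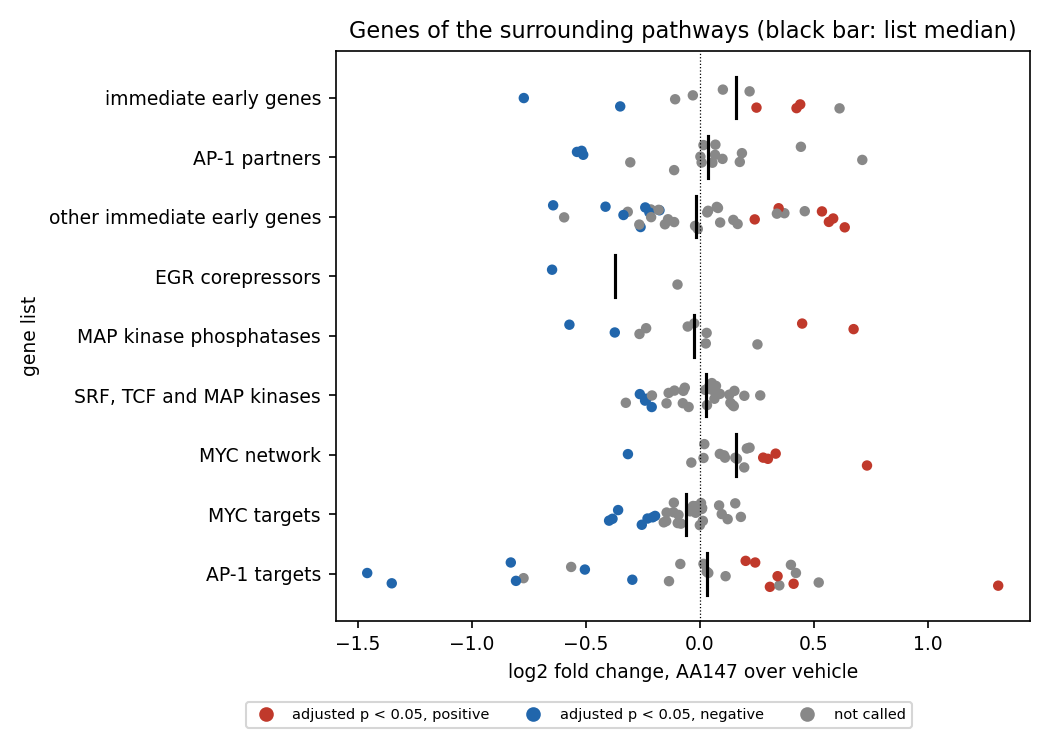
Log2 fold change (x axis, AA147 over vehicle) of each tested gene in the 10 immediate early genes and 8 surrounding lists (y axis), with red and blue for called genes, grey for genes not called and a black bar at each list median; vertical scatter within a list carries no value. Calls of both signs appear among the AP-1 targets, which run from -1.46 to 1.31, and the MYC targets hold 7 negative and 0 positive calls at this threshold.

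As a check of the labelled cell type, 4 of 12 defining neuronal genes had values, the highest being Tubb3 with a mean of 1199, Syn1 with 562 and Eno2 with 62.1 in the authors' deposited table. Rbfox3, Map2, Syp, Snap25 and the neurofilament genes were not analysed here. Markers of fibroblasts were far higher per kb of transcript, with Vim at 69679, Col1a2 at 47398 and Col1a1 at 23470 against 374 for Tubb3. Col1a1 and Col1a2 were also lower with AA147, with -1.52 (SE 0.066) and -0.97 (SE 0.053) listed for them in the authors' deposited table. The authors' deposited table also held Slc1a3, a glial glutamate transporter, at -1.30 (SE 0.089), and Col3a1 at -1.11 (SE 0.057). Of the glial and fibroblast markers, 6 of 10 tested were called negative in the authors' deposited table, and their part in the values of the immediate early genes was not tested. In such bulk samples fewer cells of a type and less RNA per cell cannot be told apart.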

How the data were processed

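mRNA of 6 libraries was measured, 3 per group, from separately labelled replicates; whether these were separate cultures is not given, so p-values measure only the spread between these samples. Per the submitters' processing notes, the authors used DESeq2 and the mouse build mm9; the aligner, counter and annotation are not given in the sources used here. The authors deposited 1 line per gene with a mean normalized count (a signal, counts scaled for depth), a log2 fold change and its SE, a score (the test statistic, equal to the fold change over its SE), and p-values before and after adjustment. The depth per library is unknown; the deposited means summed to 30768012. The 2875 genes without an adjusted p stayed without a call.

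The members and lists were chosen with earlier results of these data known. The named genes are the 10 members, the 3 largest calls per direction in each list, further FOS, EGR and MYC family genes, the markers with the 3 largest means in each marker list, and Nqo1, Gsta4 and Hspa5. Ccdc85b, Prdx2, Junos and Gm11175 were named for their overlap with a member, and Nab1 and Max as list members, after their values were seen. Genes were matched by exact symbol, and single values of some list members are not reported here.

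Intervals of 95% used the deposited SE and a normal distribution. Group means, the counting error and the fitted spread between libraries were computed from the deposited mean, fold change and SE for equal groups. Transcript lengths, GC content and overlaps came from GENCODE M39 on GRCm39, with no coordinates carried between builds. Alternatives were another threshold, a fold limit, other adjustments, a filter on the mean, centring and a robust regression on length, GC content and expression. The code was tested on simulated data. The work was done in Python 3.11.15 with pandas 2.3.3, statsmodels 0.14.6 and SciPy 1.17.1.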

Additional observations from a re-analysis of the deposited data

How the results depend on the processing

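No paired analysis was possible because the deposited file lists 1 comparison and nothing per library. Other normalizations, the replicate block and leaving out each replicate were therefore not run. Of the 10 members, each kept the sign of its fold change, and each kept its call, under an adjusted p under 0.01, an adjustment over all genes with a p, one over genes with a mean of at least 100, centring on the median of those genes, and subtraction of a trend on transcript length, on GC content and on the mean, except that Fos has no value where a mean of at least 100 is needed. Jund moved most, from -0.11 to -0.03 with the trend subtracted. With a further limit of 0.5 on the size of the log2 fold change, 1 of the 10 members (Egr1) stayed called, with 5 other immediate early genes, 2 MAP kinase phosphatases, 0 upstream kinases and factors, 1 gene of the MYC network, 0 MYC targets and 6 AP-1 targets. A Bonferroni adjustment also left 1 member, Egr1, with 4, 2, 0, 1 and 2 genes of the first 5 of these lists in the same order, and Fosl1 and Junb then had adjusted p of 0.0534 and 0.0843 as the nearest to the limit. At an adjusted p under 0.01 the upstream kinases and factors had 2 calls. Over all genes, 2741 calls became 1818 at an adjusted p under 0.01, 796 with the fold limit and 774 with Bonferroni. These settings are stricter by construction. Of 63 list and member counts under the alternatives, 49 stayed within 1.5 times and 14 moved further. The counting error was largest for Fos, where counting alone gives an SE of 0.28 against a deposited SE of 0.52.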
